A study of Homo sapiens with 10 samples.

Results

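Levels of 7 chemokine genes were compared between clones of PC-3, a human prostate cancer line. The genes were CXCL2, CXCL3, CXCL5, CXCL6, CXCL8, CCL2 and CCL20. They were taken by gene symbol from the 14884 named genes of an Affymetrix array, and each of the 7 was represented by a single probe set. PC-3 is an established line that was grown from a bone metastasis. Its cells had received a lentiviral vector, selected with blasticidin, that was either empty (control) or carried CENPU, a gene for a centromere protein. Total RNA of 5 CENPU clones (numbers 1, 4, 5, 7 and 13) and 5 control clones (numbers 1 to 5) was hybridised, with 1 array per clone. All 10 samples thus shared the line, the vector backbone and the selection, each sample was 1 clonal isolate, and the sources used here do not name the promoter that drove CENPU. The question was which transcripts differed between PC-3 clones with and without added CENPU.

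Chemokines are small secreted proteins that bind receptors on leukocytes and direct their migration. CXCL2, CXCL3, CXCL5, CXCL6 and CXCL8 carry the motif glutamate-leucine-arginine before their first cysteines and attract neutrophils through the receptors CXCR2 and, for some of them, CXCR1. CCL2 attracts monocytes through CCR2, and CCL20 attracts cells that carry CCR6. In epithelial and carcinoma cells these genes are classical targets of NF-kB, a family of transcription factor dimers that binds kappaB sites in their promoters, and their mRNAs are short-lived.

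The 5 CXC members lie in 1 cluster on chromosome 4. The stretches of 130 bases directly upstream of their start sites (RefSeq, GRCh38.p14) are shown because each contains the same 9 letters of a kappaB site, GGAATTTCC, printed in capitals. All are written 5′ to 3′ on the strand of the gene, CXCL5, CXCL2 and CXCL3 from the minus strand and CXCL6 and CXCL8 from the plus strand.
CXCL5, chr4:73998678-73998807: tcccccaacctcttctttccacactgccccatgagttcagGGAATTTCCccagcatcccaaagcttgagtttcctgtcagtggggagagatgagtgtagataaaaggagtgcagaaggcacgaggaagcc
CXCL6, chr4:73836548-73836677: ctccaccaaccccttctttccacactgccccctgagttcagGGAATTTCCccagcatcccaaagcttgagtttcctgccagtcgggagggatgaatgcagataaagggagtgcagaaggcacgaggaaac
CXCL2, chr4:74099196-74099325: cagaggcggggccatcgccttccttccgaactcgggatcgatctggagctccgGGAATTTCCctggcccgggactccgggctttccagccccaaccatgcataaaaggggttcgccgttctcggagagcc
CXCL3, chr4:74038690-74038819: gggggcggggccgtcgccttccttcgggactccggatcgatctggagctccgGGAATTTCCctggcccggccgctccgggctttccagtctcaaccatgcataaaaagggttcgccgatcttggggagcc
CXCL8, chr4:73740439-73740568: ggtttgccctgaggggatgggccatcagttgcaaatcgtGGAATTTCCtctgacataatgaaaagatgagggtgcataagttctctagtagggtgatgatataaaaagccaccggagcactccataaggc

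The match began 77 bases before the start in CXCL2, 78 in CXCL3, 89 in CXCL6, 90 in CXCL5 and 91 in CXCL8. On either strand these 9 letters occurred in the 250 bases upstream of 117 of 27305 RefSeq promoters, or 0.428%. The letters were chosen after these promoters had been read, so their presence in every CXC member is no test against that share. The looser kappaB pattern, GGG and CC with any 5 bases between, which overlaps the 9 letters in every CXC member but CXCL8, was found in 53.7% of all promoters and in all 6 members with a promoter sequence, CCL20 included. TGANTCA, the AP-1 pattern, was found in 6.60% of promoters and among the members in CXCL8, and TATAAA in 11.1% and in CXCL8 and CCL20. The printed stretches of CXCL5 and CXCL6 were identical in 90.8% of aligned positions and those of CXCL2 and CXCL3 in 87.8%, whereas every other pair of members was identical in 42.9% to 51.1%. A match of letters describes the sequence and was not measured as a bound site in these clones.

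CXCL5, a neutrophil chemokine, was the member that differed most. Its log2 levels were 5.87, 5.91, 5.37, 6.11 and 5.55 in CENPU clones 1, 4, 5, 7 and 13. They were 9.07, 9.11, 10.17, 10.24 and 8.999 in control clones 1 to 5. Control clones 3 and 4 stood about 1 log2 unit above the other controls, and the highest CENPU clone still lay 2.89 below the lowest control. CXCL5 fell to 7.39% of its control level, a log2 difference of -3.76 with a 95% interval of -4.34 to -3.17 (limma, Benjamini-Hochberg adjusted p = 4.68e-05). It ranked 1st of 14884 genes by the size of its fall, and the exact two-sided permutation test over clones gave p = 0.00794, the smallest value that 5 against 5 clones can give.

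CXCL2 and CXCL3, whose products also act on CXCR2, fell by much the same amount as each other. CXCL2 was at 7.34, 7.35, 7.03, 7.27 and 6.86 in CENPU clones 1, 4, 5, 7 and 13. It was at 7.91, 7.87, 8.18, 8.49 and 8.37 in control clones 1 to 5. The groups were 0.52 apart at their nearest clones. CXCL2 thus fell to 50.1% of its control level, a log2 difference of -0.997 with a 95% interval of -1.32 to -0.68 (limma adjusted p = 0.00401).

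CXCL3 was at 4.92, 5.18, 5.17, 4.75 and 4.47 in CENPU clones 1, 4, 5, 7 and 13, and at 5.65, 6.05, 5.85, 5.74 and 6.005 in control clones 1 to 5. Every control again exceeded every CENPU clone, by at least 0.47. CXCL3 fell to 51.5% of its control level, by 0.96 with an interval of -1.27 to -0.64 (limma adjusted p = 0.00416). The array medians were 4.62 to 4.76. CXCL3 lay below the median of its array in CENPU clone 13 (4.47 against 4.62). In CENPU clones 1 and 7 it lay little above it (4.92 against 4.76 and 4.75 against 4.64). Background signal can compress differences at such levels, and the percentage is approximate. The intervals of CXCL2 and CXCL3 overlapped over most of their width and neither reached that of CXCL5. The transcripts of CXCL2 and CXCL3 are close copies of each other and of CXCL1, probe sequences were not used here, and how much of each signal comes from the named copy is uncertain. CXCL1 was not analysed here.

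**Figure D1:**
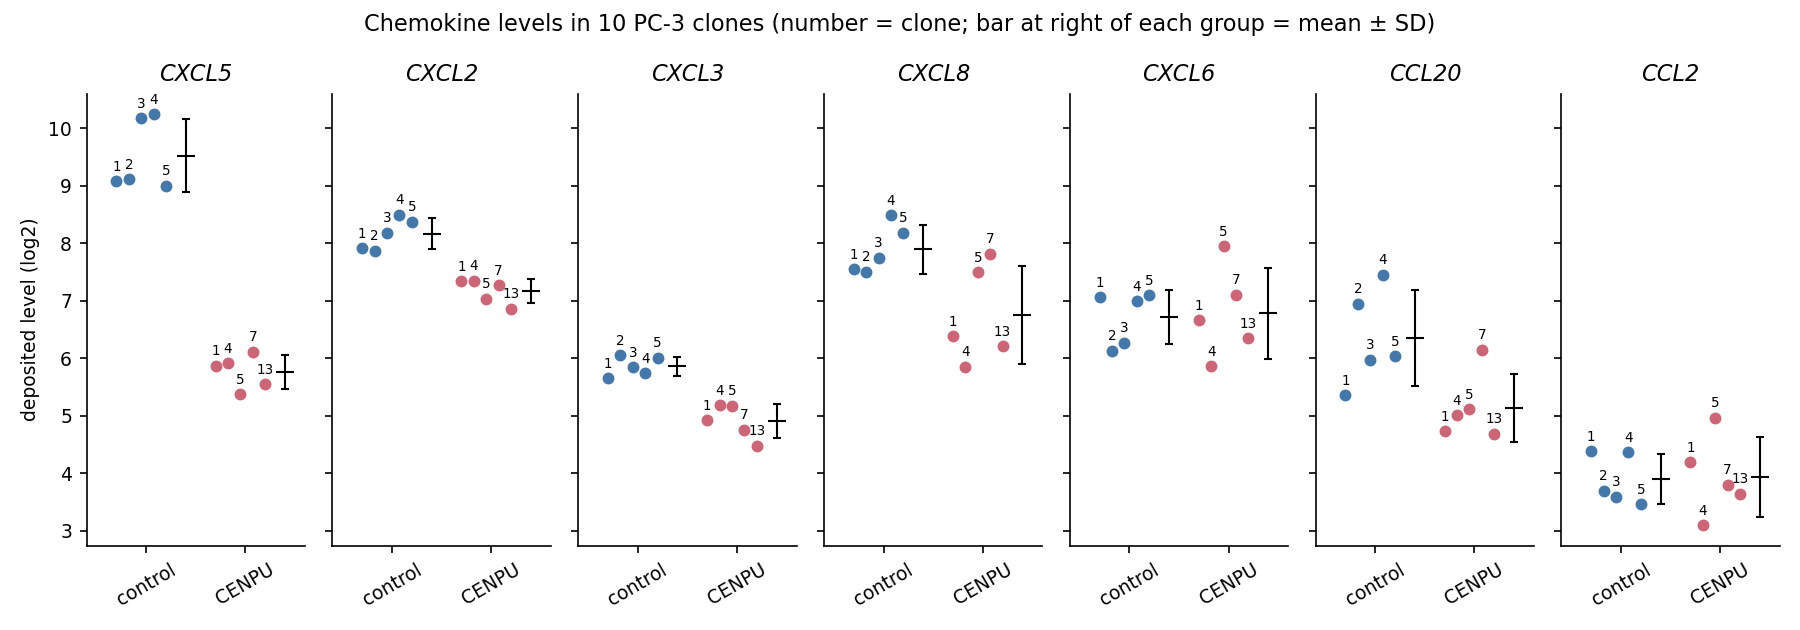
Deposited log2 levels of the 7 chemokine genes, 1 panel per gene, with 1 point per clone (blue, control; red, CENPU; the number is the clone) and the mean ± SD of 5 clones at the right of each group. CXCL5, CXCL2 and CXCL3 separate the groups completely, while the groups overlap in CXCL8, CXCL6, CCL20 and CCL2.

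CXCL8, the interleukin-8 gene, was uneven among the CENPU clones. It was at 6.38 in CENPU clone 1, 5.85 in clone 4 and 6.21 in clone 13, but at 7.49 in clone 5 and 7.81 in clone 7. Control clones 1 to 5 were at 7.55, 7.504, 7.75, 8.49 and 8.18. CENPU clone 7 exceeded 3 controls, clone 5 lay just under the lowest control, and the other 3 lay more than 1 log2 unit below every control. The log2 difference was -1.14 with an interval of -1.93 to -0.36 and did not pass (limma adjusted p = 0.0655; exact two-sided permutation p = 0.0556). It passed after quantile normalization of the arrays, at -1.22 (limma adjusted p = 0.0454), and without CENPU clone 7, at -1.41 (limma adjusted p = 0.0345).

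CXCL6, whose protein acts on CXCR1 and CXCR2, had group means close to each other. It was at 6.66, 5.86, 7.94, 7.10 and 6.34 in CENPU clones 1, 4, 5, 7 and 13, and at 7.06, 6.13, 6.27, 6.99 and 7.09 in control clones 1 to 5. CENPU clone 5 stood above all controls, clone 7 was about level with the highest of them and clone 4 lay below all of them. The log2 difference of 0.07 had an interval of -0.69 to 0.83 (limma adjusted p = 0.917), which leaves room for a rise of 0.83 or a fall of 0.69. CXCL5 and CXCL6, the pair with the most alike upstream stretches, differed in their group difference by -3.83 on the log2 scale.

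CCL20 had a mean difference as large as that of CXCL8 and also varied among clones. Its levels were 4.73, 5.00, 5.11, 6.14 and 4.68 in CENPU clones 1, 4, 5, 7 and 13, and 5.36, 6.95, 5.97, 7.45 and 6.03 in control clones 1 to 5. CENPU clone 7 exceeded 3 of the 5 controls, and control clone 1 stood lowest of its group. In CENPU clones 1 and 13 CCL20 was near the array medians, 4.76 and 4.62, where background signal can compress differences. The log2 difference was -1.22 with an interval of -2.06 to -0.37 and did not pass (limma adjusted p = 0.0673; exact two-sided permutation p = 0.0317, unadjusted). It passed without CENPU clone 7, at -1.47 (limma adjusted p = 0.0455), and without control clone 1, at -1.46 (limma adjusted p = 0.0345).

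CCL2 was dim and did not separate the groups. It was at 4.19, 3.09, 4.96, 3.80 and 3.64 in CENPU clones 1, 4, 5, 7 and 13, and at 4.38, 3.69, 3.59, 4.36 and 3.46 in control clones 1 to 5. The group means, 3.94 and 3.90, lay below the array medians of 4.62 to 4.76, where background signal can compress differences. Even so, its CENPU clones spanned 3.09 to 4.96 (SD 0.70), and compression was not tested. The log2 difference was 0.04 with an interval of -0.64 to 0.73 (limma adjusted p = 0.948).

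Thus 3 of the 7 members fell and 0 rose, where 4.79% of all 14884 genes fell, 5.31% rose and 10.1% changed in either direction in the same fit. The same 3 had groups that did not overlap, against 5.19% of all genes with CENPU clones below every control and 9.73% without overlap in either direction. The mean was lower in CENPU clones for 5 of the 7 and for 53.1% of all genes. The median log2 difference of the 7 was -0.997 and that of all genes -0.02. The members were chosen with earlier results of these data known, so these figures are no test against those of all genes. All 7 belong to the shortest quintile of protein-coding genes by length on the chromosome, of which 8.39% fell. By the size of the mean difference CCL20 ranked 16th, CXCL8 20th, CXCL2 31st and CXCL3 37th among falls, so CXCL8 and CCL20, which did not pass, had larger mean differences than CXCL2 and CXCL3, and their clones were more spread. The SD among CENPU clones was 0.85 for CXCL8 and 0.59 for CCL20, compared with 0.22 for CXCL2 and 0.30 for CXCL3 and CXCL5.

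**Figure D2:**
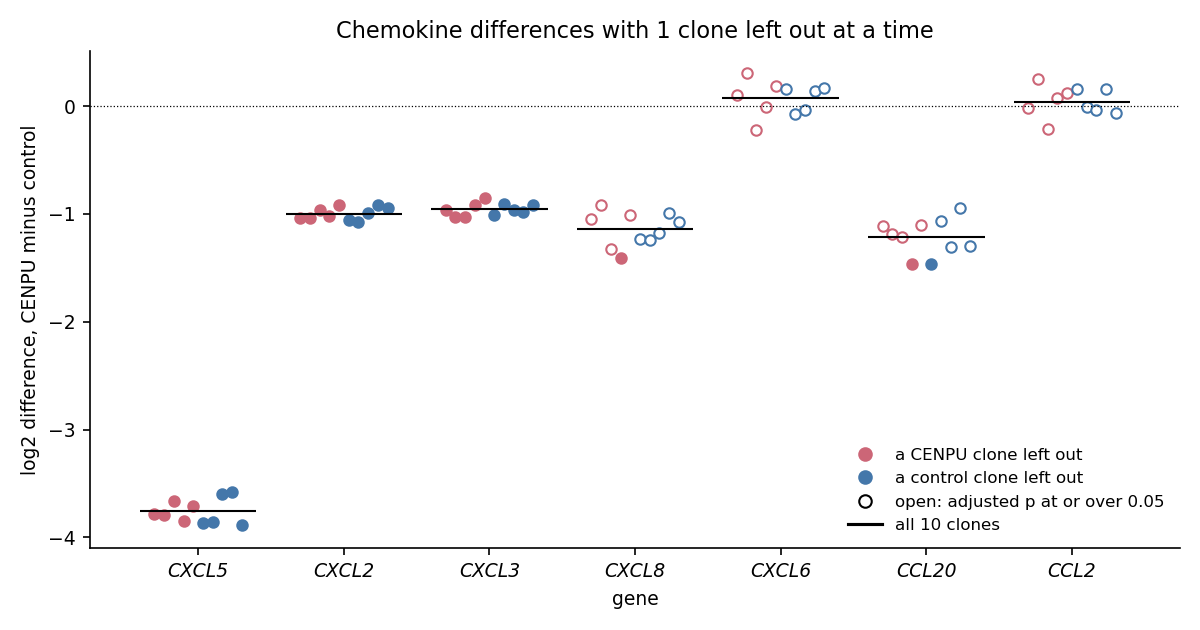
Log2 difference of each chemokine gene (CENPU minus control) with 1 clone left out at a time, red where a CENPU clone and blue where a control clone was left out, filled where the limma adjusted p was under 0.05, with the black line at the value from all 10 clones. CXCL5, CXCL2 and CXCL3 pass in all 10 fits, CXCL8 passes without CENPU clone 7, CCL20 passes without CENPU clone 7 or control clone 1, and CXCL6 and CCL2 pass in none.

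The clones did not keep 1 order across the members. CENPU clone 13 was below the CENPU mean in all 7 genes, by a median of 0.43 on the log2 scale. Control clone 4 was above the control mean in 6 of 7 and was the highest control in 4, namely CXCL2, CXCL5, CXCL8 and CCL20. CENPU clone 5 was highest of its group in CXCL6 (deviation 1.16) and CCL2 (1.03) and second in CXCL8 (0.74), but lowest in CXCL5 (-0.39). CENPU clone 4 was lowest of its group in CXCL8, CXCL6 and CCL2, with deviations of -0.90, -0.92 and -0.84, and highest in CXCL2 and CXCL3. CENPU clone 7 was highest in CXCL5, CXCL8 and CCL20. The clone that was lowest in CXCL8, CXCL6 and CCL2 was thus the highest in CXCL2 and CXCL3.

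**Figure D3:**
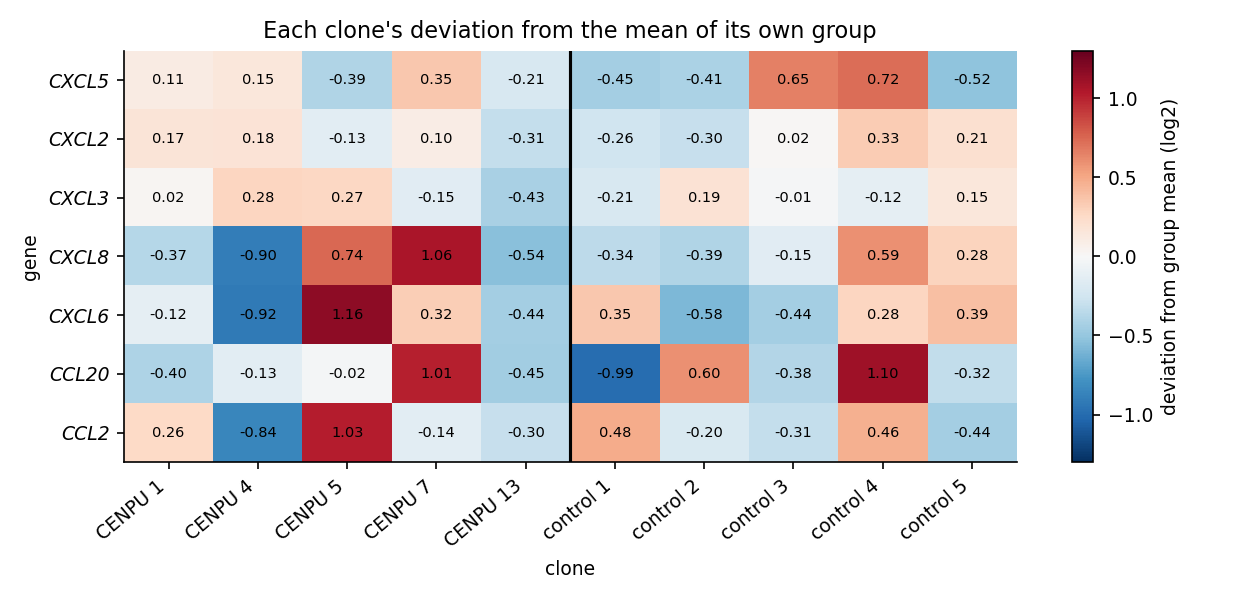
Deviation of each clone (columns) from the mean of its own group for each chemokine gene (rows), in log2 units, red above and blue below the group mean. CENPU clone 13 is below its group mean in all 7 genes, and CENPU clone 4 is the lowest of its group in CXCL8, CXCL6 and CCL2, where CENPU clone 5 is above the group mean.

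The genes with the most similar profiles were sought among protein-coding genes by the root mean square distance, over the 10 clones, between levels centred on each gene's own mean. For CXCL5 they were GKN2, a secreted gastrokine (distance 0.88 log2 units, log2 difference -2.87), BST2, an interferon-induced membrane protein (1.10, -2.20), and COXFA4L3 (1.11, -1.75). GKN2 passed in all 10 fits that left out 1 clone, whereas BST2 missed the threshold without CENPU 7, CENPU 13 or control 2, 3 or 4, and COXFA4L3 without CENPU 5, CENPU 13 or control 2 or 4 (limma adjusted p up to 0.0836 and 0.0629). These distances are larger than those found for the other members, and CXCL5 itself varied with an SD of 1.93 over the 10 clones. For CXCL2 they were HS6ST1, a heparan sulfate sulfotransferase (0.19), TRAIP, a ubiquitin ligase (0.22), and LPCAT1, a phospholipid acyltransferase (0.22). For CXCL3 they were ANKRD39 (0.16), MPDU1 (0.16) and the serum response factor SRF (0.17).

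For CXCL8 the nearest profiles were those of IFITM1, an interferon-induced membrane protein (0.42 log2 units), TMEM80 (0.52) and TFPI2, a protease inhibitor (0.54). For CCL20 they were IRF7 (0.38), TMEM158 (0.48) and IRF9 (0.49). IRF7 and IRF9 are transcription factors of the interferon response, and their log2 differences of -1.08 and -0.70 did not pass (limma adjusted p = 0.112 and 0.0663). For CXCL6 they were RNF182 (0.26), CCN2 (0.33) and GBX2 (0.36), and CCL2 itself was nearly as close (0.36). For CCL2 they were GBX2 (0.25), TNRC6C (0.30) and C5orf63 (0.31). The genes nearest to CXCL6 and CCL2 had log2 differences of -0.06 to 0.07, and in all of them the sign turned under some alternative settings.

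On chromosome 4 the cluster runs over 9 protein-coding genes from CXCL8 to CXCL2 in RefSeq order. The 3 that fell, CXCL5, CXCL3 and CXCL2, stand next to each other at one end. The platelet chemokine genes PPBP and PF4, which precede CXCL5, had log2 differences of 0.08 and -0.07, and PF4V1 had -0.12. RASSF6 and MTHFD2L, the genes that flank the cluster, had 0.11 and -0.27 (limma adjusted p from 0.330 to 0.731 for these 5). Of 18 measured genes in the wider neighbourhood, the 3 chemokines fell, ANKRD17, an ankyrin repeat protein, rose by 1.02 (limma adjusted p = 0.0246) and 14 did not pass, with a median of 0.08. Among all genes 10.1% passed. Without control 2, CENPU 7 and CENPU 13, ANKRD17 differed by 0.59 and did not pass (limma adjusted p = 0.152), nor did it without CENPU 5, 7 or 13 or control 2, 4 or 5 alone (up to 0.0626).

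**Figure D4:**
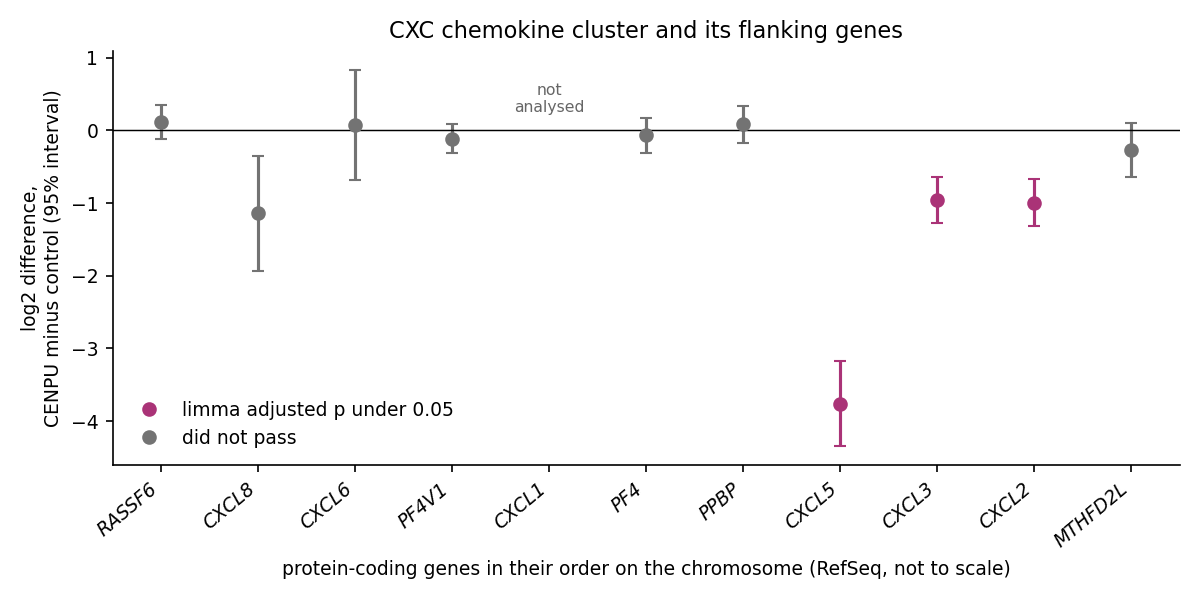
Log2 difference (CENPU minus control) with its 95% interval for the genes from RASSF6 to MTHFD2L in their order on the chromosome, purple where the limma adjusted p was under 0.05 and grey where it was not. CXCL5 at -3.76, CXCL3 at -0.96 and CXCL2 at -0.997 are adjacent, and PF4 and PPBP beside them are near 0.

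Outside the 7 members, 0 of the measured chemokines and receptors passed, where 10.1% of all genes did. Of the 6 measured genes with the glutamate-leucine-arginine motif, 3 fell and 3 did not pass, with a median of -0.98. An unadjusted limma p under 0.05 was reached by 4147 of all 14884 genes. None of 13 other CXC, XC and CX3C genes passed in limma, where 1 had an unadjusted p under 0.05, CXCL10 at -0.23. None of 21 CC chemokines passed either, and the 4 with an unadjusted p under 0.05 were CCL20, CCL26 (-0.41), CCL22 (-0.28) and CCL1 (-0.27). In CCL22 and CCL1 every CENPU clone lay below every control, by 0.020 and 0.015 at the nearest clones. The same held for 5.19% of all genes. Of 20 receptors 0 passed in limma and 1, CXCR1 at -0.26, had an unadjusted p under 0.05. CXCR2, the receptor of the neutrophil chemokines, had -0.20. The medians of these 3 lists were -0.04, -0.06 and -0.05. Most of these genes were dim. Only 3 of the 13, 5 of the 21 and 3 of the 20 had a mean level above the median of all genes. A dim gene that did not pass cannot be read as an unchanged transcript.

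Genes upstream of chemokine transcription were mixed, where 4.79% of all genes fell and 5.31% rose. IL17RA, a subunit of the interleukin-17 receptor, fell by 0.58 (limma adjusted p = 0.0467) among 11 measured inducing cytokines and receptors, while the other 10 did not pass and the list median was 0.01. MYD88, the adaptor of interleukin-1 and Toll-like receptors, fell by 0.56 from 8.31 ± 0.17 to 7.75 ± 0.13 (SD, n = 5; limma adjusted p = 0.0102). TAB2, which links TRAF6 to the kinase TAK1, rose by 0.82 (limma adjusted p = 0.0367), and the other 7 of 9 measured adaptors and kinases did not pass, MAP3K7, the TAK1 gene, among them (0.89, limma adjusted p = 0.0511). The median of those 9 was 0.16. The call of IL17RA was lost without CENPU 7, CENPU 13 or any 1 control, and so was that of TAB2, with limma adjusted p up to 0.113 and 0.0910, while MYD88 passed in all 10 fits that left out 1 clone.

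Of 13 listed NF-kB subunits and inhibitors 6 had no probe set with a single gene symbol, the inhibitor genes NFKBIA and TNFAIP3 among them. Of the 7 measured 3 fell and 4 missed the threshold, the median being -0.26. Among all genes 4.79% fell and 5.31% rose, which is also the background for the lists that follow. NFKB2 and RELB, which form the non-canonical dimer, fell by 0.52 and 0.54, and TNIP1, an inhibitor of NF-kB signalling, by 0.55 (limma adjusted p = 0.0198, 0.0310 and 0.0462). RELA, the main activating subunit, had -0.22. JUNB, an AP-1 subunit, fell by 0.99 (limma adjusted p = 0.0123) and the other 7 of 8 AP-1 and C/EBP genes did not pass, with a median of -0.20. ZC3H12A, an endoribonuclease that degrades cytokine mRNAs, fell by 1.12 (limma adjusted p = 0.0108), and the other 7 of 8 regulators of mRNA decay did not pass, with a median of 0.12. CSF3 and CSF1, the granulocyte and macrophage colony-stimulating factors, fell by 0.83 and 0.61 (limma adjusted p = 0.0347 and 0.0468), and the other 4 of 6 in their list, IL11 (-0.48) included, did not pass, with a median of -0.45. With 1 clone left out, JUNB and ZC3H12A passed in all 10 fits. NFKB2 missed the threshold without control 4 (limma adjusted p = 0.0518), and RELB without CENPU 5, CENPU 13 or control 2, 3, 4 or 5 (up to 0.0713). TNIP1 did so without CENPU 5, 7 or 13 or control 2, 3, 4 or 5 (up to 0.110), and CSF3 without the same clones (up to 0.0881). CSF1 did so in 8 of 10, all but those without CENPU 1 or CENPU 7 (up to 0.102).

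**Figure D5:**
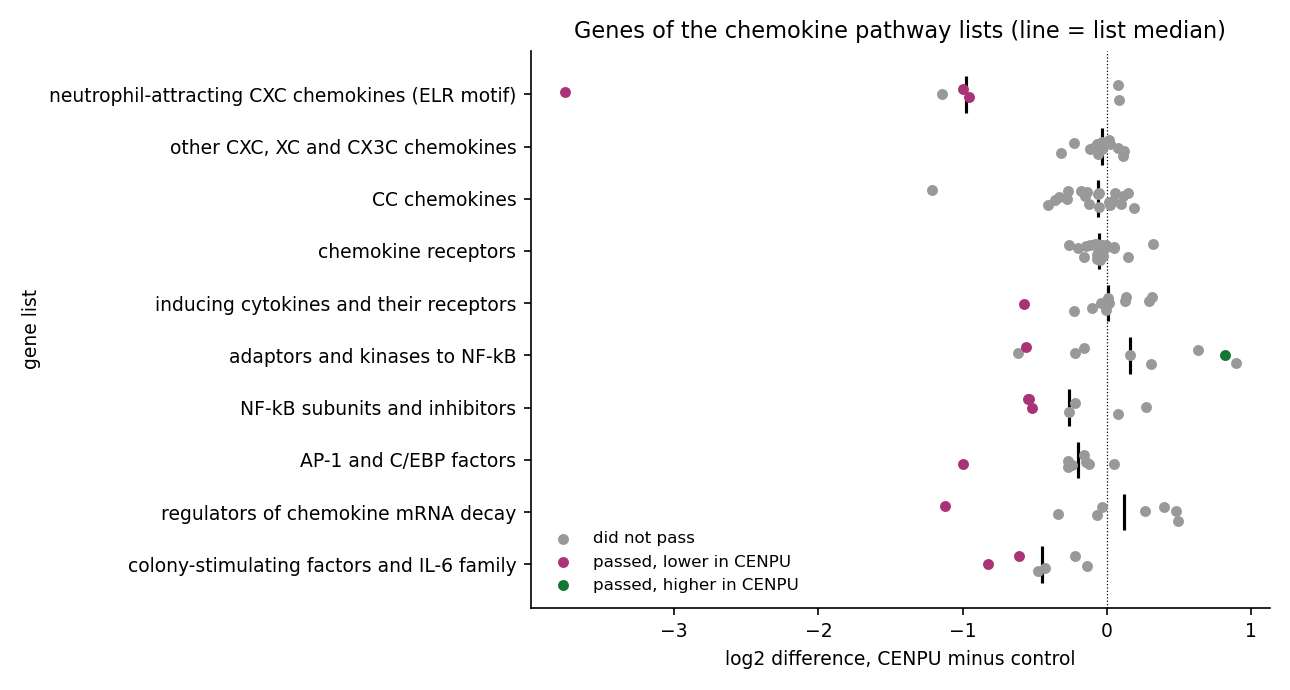
Log2 difference (CENPU minus control) of every measured gene in 10 lists of the chemokine pathway, with 1 point per gene (purple, passed and lower; green, passed and higher; grey, did not pass) and a black line at the list median. The neutrophil-attracting CXC chemokines have the lowest median, -0.98, and the points of the other chemokines and the receptors lie near 0 apart from CCL20.

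A further set was read by sequence. Besides the 5 CXC members, 36 measured genes had GGAATTTCC within 250 bases upstream of the start. Of these 3 fell, ICAM1, an adhesion receptor for leukocytes, by 0.75, DHRS7B by 0.62 and STARD3 by 0.37 (limma adjusted p = 0.00401, 0.00401 and 0.0431), 0 rose and 33 did not pass. That is 8.33% lower, against 5.07% lower and 6.10% higher of the 10749 measured genes with a promoter sequence, and the median was -0.04.

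CENPU itself was 8.70 to 9.84 in CENPU clones and 5.78 to 6.56 in controls, so each clone matched its label. The deposited table held 53617 probe sets, array values ran from 1.65 to 15.0, and arrays carry no total count, so the number of clones limits the precision. The 4 measured epithelial markers were KRT8, KRT18 and KRT19, keratins, and EPCAM, an adhesion protein, with log2 differences of -0.03, -0.21, 0.34 and 0.85. Their mean log2 level was 8.43 to 9.24 in CENPU clones and 8.33 to 8.77 in controls. That of 6 leukocyte markers was 5.22 to 5.44 and 5.32 to 5.62, and that of 2 fibroblast markers 2.67 to 2.97 and 2.84 to 2.98. That of 3 luminal prostate markers was 7.43 to 7.55 and 7.23 to 7.41, and that of 3 endothelial markers 5.41 to 6.97 and 5.65 to 6.07. Of these 5 lists 1 gene passed, where 10.1% of all genes did. It was HOXB13, a transcription factor of prostate epithelium, which rose by 0.42 (limma adjusted p = 0.0323). HOXB13 was the brightest luminal marker, with a mean of 11.1. The other luminal markers, KLK3 and KLK2, both had a mean of 5.59 and differed by -0.04 and -0.01. Leukocyte markers ranged from S100A12 at 3.47 to CD68 at 10.3, so these list means mix dim and bright genes. At an unadjusted p under 0.05 were 1 epithelial gene (EPCAM), 1 luminal, 1 leukocyte, 0 fibroblast and 0 endothelial genes. Of all 14884 genes 4147 were. KDR, an endothelial receptor, ranged from 6.74 to 10.5 among CENPU clones and from 7.56 to 8.64 among controls. Each sample was a clonal isolate of the PC-3 line, so these are levels of marker transcripts in PC-3 clones, not shares of other cell types. Whether marker levels went with the chemokine differences was not tested. In bulk RNA, fewer cells that express a chemokine and less RNA per cell cannot be told apart.

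Deviations of single clones over protein-coding genes went with genomic span, the length of the gene on the chromosome. Spearman's rho was -0.09, -0.36, -0.16, -0.28 and -0.16 in control clones 1 to 5. It was -0.16, -0.04, 0.20, 0.32 and 0.36 in CENPU clones 1, 4, 5, 7 and 13. The trend thus went partly with the group. All 7 chemokine genes belong to the shortest quintile of protein-coding genes by genomic span, of which 8.39% fell. With that trend removed from each array, CXCL5 differed by -3.66, CXCL2 by -0.90 and CXCL3 by -0.86 (limma adjusted p = 1.72e-05, 0.00321 and 0.00311), and CXCL8 and CCL20 by -1.05 and -1.12. Without control 2, CENPU 7 and CENPU 13, the clones at the ends of the trend, the same 3 members fell, CXCL5 by 3.91, CXCL2 by 1.00 and CXCL3 by 0.72 (limma adjusted p = 0.000713, 0.0132 and 0.0183), against 1.75% of all genes that fell there. In that fit of 7 clones 0 of the NF-kB subunits and inhibitors passed in limma, with NFKB2, RELB and TNIP1 at -0.43, -0.55 and -0.48, and IL17RA (-0.38), TAB2 (0.36), JUNB (-0.99), ZC3H12A (-0.98) and CSF3 (-0.54) did not pass either. MYD88 and CSF1 fell there by 0.60 and 0.78.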

How the data were processed

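The authors deposited log2 values for 10 arrays, 1 per clone. Per the submitters' processing notes, Partek and RMA were used, with no version stated. RMA comprises background correction, quantile normalization and probe summary, and the log2 scale was inferred from the values. Of 53617 rows, 16098 had 1 gene symbol in a platform table. The other 37519, with no symbol or several, were left out and not counted apart. All 16098 matched RefSeq (GRCh38.p14) by gene ID, giving 14884 genes, each taken by its row of highest mean.

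Groups came from the sample titles. Since each sample is 1 clone, p-values reflect clone-to-clone spread. Rows were fitted with limma 3.58.1 (R 4.3.3; lmFit, eBayes with a constant prior), with Benjamini-Hochberg adjustment over 16098 rows and a threshold of 0.05. The fit was tested on simulated data. Single values had exact permutation tests over clones. Promoters were searched and aligned in Python 3.11.15 with Biopython 1.88. The members, the lists and the alternatives were chosen with earlier results of these data known, and the 9 kappaB letters after the promoters had been read. Genes named were all members, of each list those that passed or were among the 4 of smallest p, and 3 nearest profiles per member. The marker and flanking genes and the 3 genes with the kappaB letters were named after their values were seen. Clone numbers 1, 4 and 5 occur in both groups, but the labels give no pairing and clones were not paired in the main fit. Alternatives covered scaling, filters, array weights, the variance prior, thresholds, the span trend and the clones used.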

Additional observations from a re-analysis of the deposited data

Results flagged for a closer look

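In groups of 5 clones, a clone was singled out where its gap to the nearest other clone exceeded 0.71 of the range of the group. Among 128 groups of the genes considered 8 met this, and chance gives about 1 in 20. None was a chemokine group of the 7 members. On the log2 scale, control clone 1 was lowest in CSF3 (6.99, next clone 7.82) and in TMEM158 (9.91, next 10.5). CENPU clone 7 was highest in TMEM158 (10.5, next 9.59). Control clone 5 was highest in IL17RA (9.20, next 8.66) and lowest in IL17C (6.62, next 6.74). Control clone 3 was highest in RELB (7.86, next 7.47). CENPU clone 4 was highest in CXCL10 (3.03, next 2.95) and in RELA (9.95, next 9.70).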

How the results depend on the processing

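CENPU and CXCL5 kept direction and call in all 23 alternatives run, with log2 differences of 2.81 to 3.24 and -3.91 to -3.58. CXCL2 and CXCL3 kept theirs in 22. Of the 7 chemokine genes 3 passed, and 3 to 5 with 1 clone left out, 5 being without CENPU 7. At an adjusted p under 0.10, 5 passed. Clone numbers 1, 4 and 5 occur in both groups, and the labels give no batch or pairing. Correlations of deviations between clones of the same number were -0.37, 0.10 and 0.02. They cannot settle whether these clones share more than a number. With the number as a replicate block, a fit that can use only those numbers for the comparison, 1 chemokine gene passed, CXCL5, and CXCL2 and CXCL3 differed by -1.02 and -0.71 (limma adjusted p = 0.0649 and 0.0748).

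Of all named genes 1504 passed, 733 with ordinary variances, 253 at an adjusted p under 0.01, 2588 under 0.10, 55 with the replicate block and 470 in 7 clones. With 1 clone left out it was 613 (without control 4) to 2471 (without CENPU 1). The genes that fell were 47.4% of those that passed, and 40.8% (without CENPU 1) to 60.8% (ordinary variances) over the alternatives. Among the settings of scaling, this share was 55.8% after quantile normalization and 56.4% after median centring, and it was 42.1% with array weights.

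Signs turned in 8 genes, of which 7 had differences of -0.06 to 0.07 and ZC3H12C had 0.49, which did not pass. CXCL6 had -0.0024 after quantile normalization, -0.23 with the replicate block and -0.033 in 7 clones, and ZC3H12C -0.14 with the block and -0.12 in 7 clones. CCN2 had 0.020 with array weights and as a mean over rows and 0.090 with the span trend removed. GBX2 had 0.12 with array weights, 0.13 with the block, 0.16 in 7 clones and 0.018 with the trend removed. TNRC6C had 0.057, 0.094 and 0.098 with array weights, the block and 7 clones, and C5orf63 -0.0095 with the trend removed. With 1 clone left out, CXCL6 ran from -0.22 to 0.30, CCL2 from -0.21 to 0.25, RNF182 from -0.22 to 0.15, CCN2 from -0.13 to 0.14, GBX2 from -0.38 to 0.17, TNRC6C from -0.18 to 0.066 and C5orf63 from -0.072 to 0.17. The cause was not tested. Background signal can compress differences in dim rows, and the filter on dim rows removed CCL2.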
